A study of Mus musculus with 6 samples.

Results

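The genes described here are 34 genes that mark macrophages and monocytes or act in them, out of 18193 genes read by the arrays. They were listed by name, and each was followed on the probe set with the highest mean over all arrays. Of the 34, 32 had a probe set of their own, with 62 probe sets in all, and 24 were bright enough to be tested. RNA came from whole colon of C57BL/6 mice aged 6 to 8 weeks, taken 24 h after ethanol was given by rectal injection. There were 3 genotypes with 2 arrays each: wild type (WT), GPR41 KO (G41KO) and GPR43 KO (G43KO). GPR41 and GPR43 are cell surface receptors for short-chain fatty acids, the fermentation products of gut bacteria, and are encoded by Ffar3 and Ffar2. All 3 groups received ethanol, so the comparisons set genotypes side by side under that treatment, and colon without it was not analysed here. How the KO alleles were made is not stated in the labels.

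Macrophages are phagocytes, and the colon wall normally holds many of them. Resident macrophages clear dying cells and bacteria without strong inflammation, and they are known for the mannose receptor, the scavenger receptor CD163, complement component C1q and the fractalkine receptor. In the gut they are in large part replaced from blood monocytes, and injury brings in further monocytes, which pass through an inflammatory state marked by other genes. The members were therefore split by known role into 13 genes of resident macrophages, 11 genes of recruited monocytes and of activated or lipid-handling macrophages, and 10 genes shared by myeloid cells or by leukocytes more widely. In whole tissue, fewer cells of a type and less RNA per cell cannot be told apart.

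Values are MAS5 signals, in arbitrary units scaled so that every array has a trimmed mean of 500.0, and median signals per array ran from 80.9 to 96.8. Changes are log2 fold changes of signal + 18 with the standard error (SE) of a limma fit to all 6 arrays, n = 2 per group. A gene passed when its p, adjusted by the Benjamini-Hochberg method over the 10916 genes tested, was under 0.05. Whether both arrays of a group represent different animals is not stated, in which case the p-values reflect no more than the spread of these samples, which may be technical. With 2 arrays against 2, an exact permutation test cannot give a two-sided p below 0.333, and the number of arrays limits the precision of every value here. Ffar2 (chr7:30818031-30823775, GRCm38.p6) had signals of 1194 and 1118 in WT, 1857 and 1933 in G41KO, and 1598 and 189.0 in G43KO (-1.02 ± 0.72, adjusted p = 0.482, in G43KO). The 2 G43KO arrays thus disagree on this probe set, with 1598 above both WT arrays and 189.0 below both. The value of 1598, from the library labelled GPR43 KO replicate 1, goes against the label. Where the probe set lies relative to the deleted part was not checked. The G43KO calls of genes named below are also given without that library. For Ffar3 the annotation listed no probe set, which leaves the GPR41 KO label unchecked. The 8 epithelial markers, which identify the colon lining, had summed signals of 154234 and 177862 in WT and 211887 to 241976 in the KO arrays, with 1 past the threshold in G41KO (Vil1, 0.58, adjusted p = 0.0398) and none in G43KO.

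The members that fell in the KO groups were all recruited-cell or shared genes, and no tested resident gene passed. In G41KO, 11 of 24 tested members fell, none rose and 13 did not pass, where 3.11% of all genes tested fell and 1.85% rose. They comprised 5 of 5 recruited-cell genes, 6 of 10 shared genes and 0 of 9 resident genes. In G43KO, 6 of 24 fell, none rose and 18 did not pass, against 2.41% of all genes that fell and 1.55% that rose. These were 2 of 5 recruited-cell genes, 4 of 10 shared genes and 0 of 9 resident genes. With both KO groups averaged, 11 members fell (5 recruited, 6 shared), against 3.79% of all genes.

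The class medians stood in the same order in both comparisons. In G41KO the median log2 fold change was -2.19 over the tested recruited-cell genes, -1.24 over the shared genes and -0.32 over the resident genes, beside 0.00057 over all genes tested. In G43KO the medians were -1.87, -1.08 and -0.08, beside 0.03. Both comparisons use the same WT arrays, and the difference between classes was not tested. The test took only genes whose mean over all 6 arrays was above a signal of 126, so a gene that is low in the KO groups was tested only if WT was high, and counts over the tested members are a description. Over all members with a probe set, tested or not, the medians were -1.87 (recruited) and -0.22 (resident) in G41KO and -0.89 and -0.08 in G43KO.

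**Figure D1:**
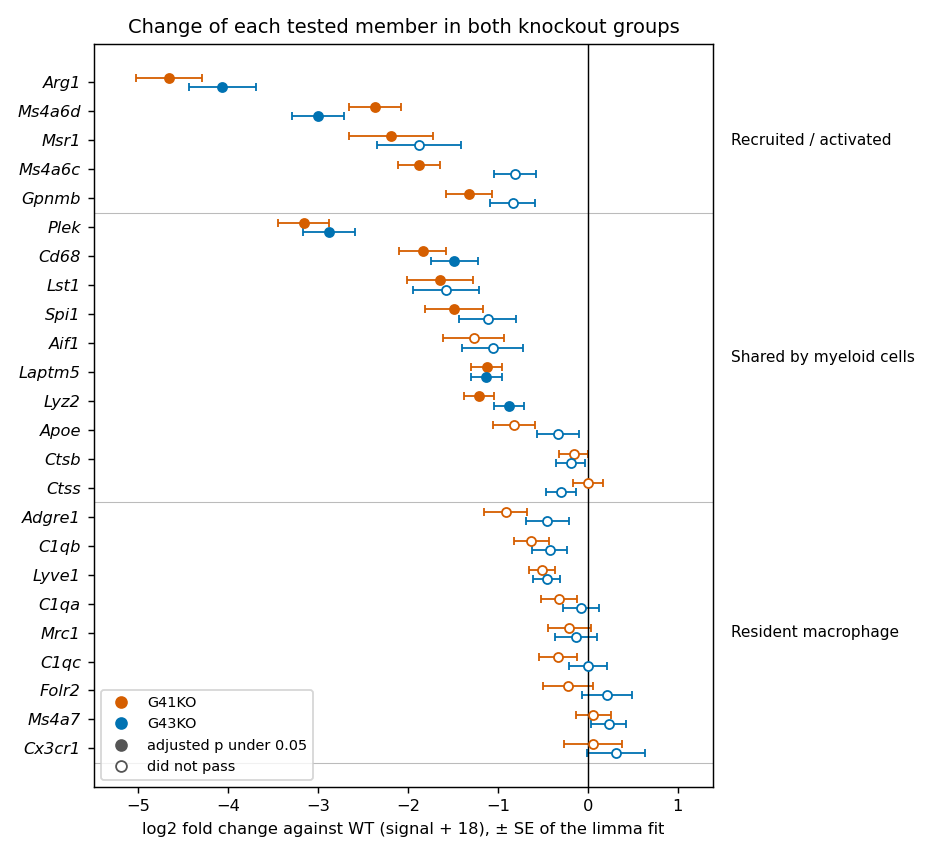
The log2 fold change against WT (signal + 18, x axis) is shown for each of the 24 tested members in G41KO (orange) and G43KO (blue), with bars for the SE of the limma fit and filled points for an adjusted p under 0.05. Arg1 and Plek lie farthest to the left, at -4.66 and -3.16 in G41KO, and every resident gene has an open point.

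Calls depended on single arrays. Of the 11 calls in G41KO, 4 were kept whichever array was left out (Ms4a6c, Ms4a6d, Arg1 and Plek), and of the 6 in G43KO, 3 were kept (Ms4a6d, Arg1 and Plek). The number of members called in G41KO was 16 without WT replicate 1, 7 without WT replicate 2 and 4 without G41KO replicate 1. In G43KO it was 10 without WT replicate 1, 3 without G43KO replicate 2 and 4 without the library labelled GPR43 KO replicate 1. With both KO groups averaged, 7 were called without WT replicate 2. Shared genes called in G41KO numbered 1 without G41KO replicate 1, and resident genes 3 without WT replicate 1. Median centring of the arrays also changed the overall split in G41KO, from 339 genes lower and 202 higher to 338 lower and 314 higher.

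Among recruited-cell genes, Arg1 changed most. Arg1 (chr10:24915207-24927470, GRCm38.p6, as for all positions here) encodes arginase 1, which breaks down arginine and is a classic marker of alternatively activated and wound-associated macrophages. Its signals were 2764 and 5627 in WT, 168 and 113 in G41KO, and 295 and 160 in G43KO. Both WT arrays were far above all 4 KO arrays, which held 3.36% (G41KO) and 5.43% (G43KO) of the WT mean. The log2 fold change was -4.66 ± 0.37 in G41KO (adjusted p = 0.000591) and -4.07 ± 0.37 in G43KO (adjusted p = 0.00136), and without the library labelled GPR43 KO replicate 1 the gene still passed in G43KO.

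Ms4a6d and Ms4a6c belong to a family of membrane proteins with several transmembrane segments, and both are known from monocytes and macrophages. Together with the resident gene Ms4a7 they lie within 283.8 kb of chromosome 19. Ms4a6d (chr19:11586606-11604804) had signals of 826 and 1446 in WT, 187 and 206 in G41KO, and 101 and 143 in G43KO. The 3 groups did not overlap, with G43KO lowest. The log2 fold change was -2.37 ± 0.29 in G41KO (adjusted p = 0.00284) and -3.00 ± 0.29 in G43KO (adjusted p = 0.00148). Ms4a6c (chr19:11469353-11487182) had signals of 1049 and 1586 in WT, 299.9 and 382 in G41KO, and 840 and 635 in G43KO. Here the groups did not overlap either, but the order of the KO groups was the opposite. Ms4a6c fell by 1.87 ± 0.24 in G41KO (adjusted p = 0.00308) and had -0.81 ± 0.24 in G43KO (adjusted p = 0.101), where it passed without WT replicate 1 (adjusted p = 0.0232). The neighbouring Ms4a7, described with the resident genes, showed no such drop in signal.

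Msr1 and Gpnmb passed in G41KO and not in G43KO, and neither passed in the test between the KO groups. Msr1 (chr8:39543232-39642750) encodes the class A scavenger receptor, which takes up modified lipoproteins and bacteria. Its signals were 305 and 682 in WT, 108 and 68.9 in G41KO, and 173 and 70.2 in G43KO, so every KO array was below both WT arrays, which themselves differed widely. Limma gave -2.19 ± 0.47 in G41KO (adjusted p = 0.0333) and -1.87 ± 0.47 in G43KO (adjusted p = 0.0646). Gpnmb (chr6:49036518-49058182) encodes a transmembrane glycoprotein of lipid-laden macrophages. Its signals were 291 and 413 in WT, 123 and 133 in G41KO, and 190 and 183 in G43KO, again with no overlap between WT and either KO group. The log2 fold change was -1.32 ± 0.25 in G41KO (adjusted p = 0.021) and -0.84 ± 0.25 in G43KO (adjusted p = 0.115). In G41KO, the Msr1 call was lost without WT replicate 2 (adjusted p = 0.172), G41KO replicate 1 (0.0984) or G41KO replicate 2 (0.165), and the Gpnmb call likewise (0.149, 0.12 and 0.0872). In G43KO, Msr1 passed without WT replicate 1 (0.017).

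The other 6 recruited-cell genes were not tested. Marco, a second scavenger receptor, had signals of 197 and 226 in WT, 31.8 and 5.92 in G41KO, and 25.7 and 6.86 in G43KO. Its WT arrays stood far above the KO arrays, which were near the 20th percentile of all values (18.4). With no filter, the limma fit gave -2.73 in G41KO (adjusted p = 0.0245) and -2.80 in G43KO (adjusted p = 0.0287). In a combination chosen after seeing the data, with no filter and that library left out whose Ffar2 signal goes against its label, Marco did not pass in G43KO (-3.20, adjusted p = 0.079). The costimulatory ligand Cd80 had signals of 90.9 and 173 in WT, 41.5 and 76.1 in G41KO, and 88.1 and 38.8 in G43KO. Its partner in costimulation, Cd86, had 60.7 and 161 in WT, 92.5 and 128 in G41KO, and 152 and 193 in G43KO. Cd80 was below both WT arrays in each KO array, whereas the Cd86 groups overlapped. Trem2, a lipid-sensing receptor, ranged from 10.8 to 107 with WT at both 25.6 and 107. With no filter, Cd80, Cd86 and Trem2 did not pass in either group (adjusted p from 0.43 to 0.959). Ly6c2, the gene of the Ly6C antigen of inflammatory monocytes, was read only on a probe set annotated to several genes and was given no value. Spp1, which encodes osteopontin, had no probe set with this symbol in the annotation used.

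**Figure D2:**
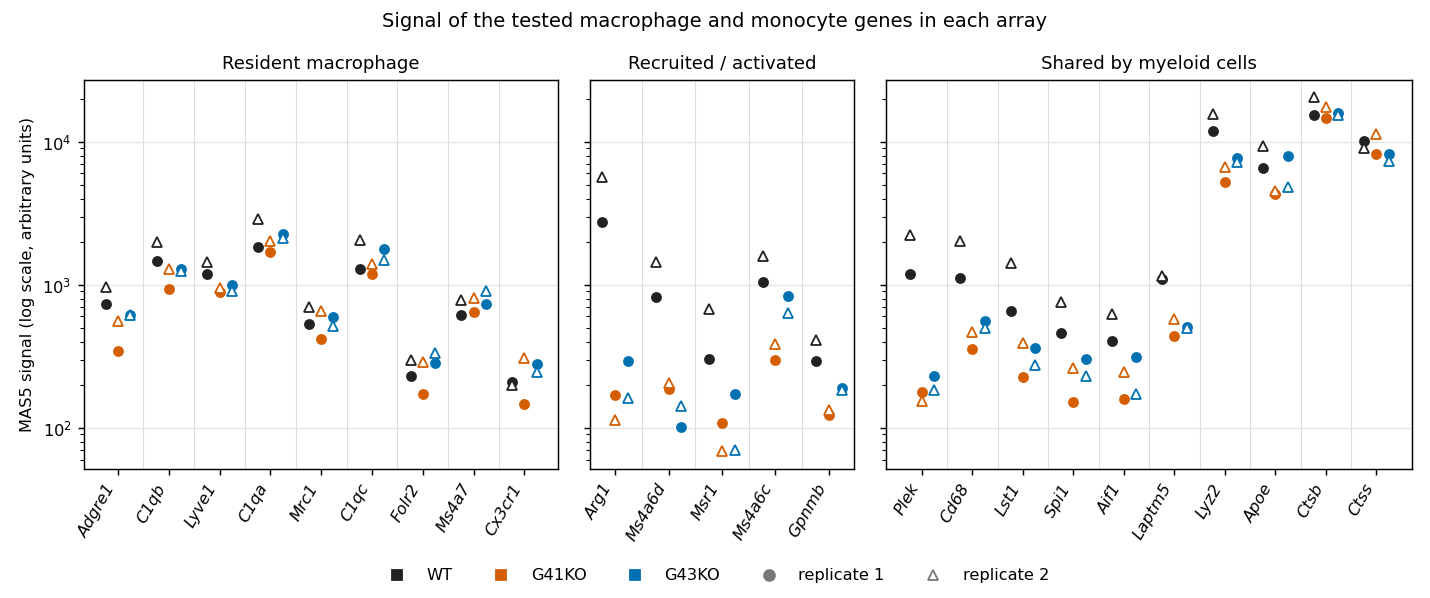
The MAS5 signal (log axis, arbitrary units) of each tested member is shown in each array, with WT in black, G41KO in orange and G43KO in blue, filled circles for replicate 1 and open triangles for replicate 2. The WT points of Arg1 (2764 and 5627) stand apart from its KO points (113 to 295), while the points of C1qa, Mrc1 and Ms4a7 overlap between WT and both KO groups.

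The shared genes ranged from Plek, which lost most of its signal, to Ctsb and Ctss, which stayed near WT on the probe sets used in the fit. Plek (chr11:16971206-17008718) encodes pleckstrin, a substrate of protein kinase C in leukocytes and platelets. Its signals were 1193 and 2222 in WT, 179 and 154 in G41KO, and 229 and 185 in G43KO, with all KO arrays far below WT. It fell by 3.16 ± 0.29 in G41KO (adjusted p = 0.000866) and by 2.88 ± 0.29 in G43KO (adjusted p = 0.0015). Cd68 (chr11:69664213-69666170) encodes a lysosomal glycoprotein used as a general macrophage marker. Its signals were 1120 and 2016 in WT, 357 and 466 in G41KO, and 558 and 495 in G43KO, and WT, G43KO and G41KO lay in that descending order with no overlap. Cd68 fell by 1.84 ± 0.26 in G41KO (adjusted p = 0.0056) and by 1.48 ± 0.26 in G43KO (adjusted p = 0.0189).

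Laptm5, a lysosomal membrane protein of blood cells, and Lyz2, the lysozyme of myeloid cells, also fell in both groups. Laptm5 (chr4:130912890-130936148) had signals of 1089 and 1154 in WT, 440 and 577 in G41KO, and 508 and 499 in G43KO. Both KO groups were below WT by about the same amount, with log2 fold changes of -1.13 ± 0.17 in each (adjusted p = 0.00715 in G41KO and 0.00951 in G43KO). Taken as the mean over its 5 probe sets, Laptm5 did not pass (adjusted p = 0.131 and 0.187). Lyz2 (chr10:117277541-117282272) was bright in every array, with 11925 and 15689 in WT, 5210 and 6691 in G41KO, and 7727 and 7198 in G43KO. The groups did not overlap, and Lyz2 fell by 1.21 ± 0.17 in G41KO (adjusted p = 0.00494) and by 0.87 ± 0.17 in G43KO (adjusted p = 0.0271).

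Leaving out an array ended several of these calls. Without G41KO replicate 1, the adjusted p in G41KO was 0.0526 for Cd68, 0.0524 for Lyz2 and 0.0595 for Laptm5. In G43KO, Cd68 was lost without the library labelled GPR43 KO replicate 1 (0.0622) or G43KO replicate 2 (0.121), and Lyz2 without either of them (0.096 and 0.165) or WT replicate 2 (0.0824). Laptm5 was lost in G43KO without G43KO replicate 2 (0.0693).

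Spi1 and Lst1 passed in G41KO and not in G43KO. Spi1 (chr2:91082374-91115759) encodes PU.1, the transcription factor that directs myeloid development. Its signals were 457 and 761 in WT, 151 and 259.9 in G41KO, and 303 and 228 in G43KO, all KO arrays below WT. Its log2 fold change was -1.49 ± 0.32 in G41KO (adjusted p = 0.0337) and -1.11 ± 0.32 in G43KO (adjusted p = 0.0974). Lst1 (chr17:35185095-35188440), a small leukocyte membrane protein, had 659 and 1431 in WT, 226 and 393 in G41KO, and 359.98 and 275 in G43KO. Its WT arrays differed more than most, yet both lay above every KO array. On the log2 scale it had -1.64 ± 0.37 in G41KO (adjusted p = 0.0403) and -1.57 ± 0.37 in G43KO (adjusted p = 0.0539). The Spi1 call in G41KO was lost without WT replicate 2 (0.16) or G41KO replicate 1 (0.197), and the Lst1 call without any array other than WT replicate 1 (0.0505 to 0.23). In G43KO, both passed without WT replicate 1 (0.031 for Spi1 and 0.0039 for Lst1).

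The remaining 4 shared genes did not pass. Aif1, the calcium-binding protein IBA1 of macrophages, had signals of 405 and 626 in WT, 159.6 and 246 in G41KO, and 314 and 172 in G43KO. Apoe, the lipid-carrying apolipoprotein E, had 6557 and 9300.2 in WT, 4295 and 4549 in G41KO, and 7907 and 4844 in G43KO. For Aif1, WT lay above both KO groups (-1.27, adjusted p = 0.0748 in G41KO, and -1.06, adjusted p = 0.132 in G43KO). For Apoe, WT lay above G41KO alone (-0.82, adjusted p = 0.0921). In G43KO, 7907 lay between the WT values and 4844 below both (-0.33, adjusted p = 0.478). In G41KO, Aif1 passed without WT replicate 1 (0.0351), and Apoe without WT replicate 1 (0.0234), the library labelled GPR43 KO replicate 1 (0.0425) or G43KO replicate 2 (0.0431). The lysosomal proteases Ctsb and Ctss are made by many cell types. Ctsb had 15464 and 20406 in WT and 14620.0 to 17359 in the KO arrays, and Ctss had 10165 and 9003 in WT and 7336 to 11234 in the KO arrays. Their log2 fold changes were -0.16 and 0.0045 in G41KO and -0.19 and -0.30 in G43KO, none with an adjusted p under 0.355. On the other Ctsb probe sets above the intensity cut, log2 differences from WT ran from -0.63 to -0.03 in G41KO and from -0.57 to -0.13 in G43KO.

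PU.1, the product of Spi1, binds purine-rich sites with the core GAGGAA in myeloid genes, and the 250 bases before each start in RefSeq's promoter table were searched for these letters on both strands. Entries were at hand for 20 of the 32 members with a probe set, with 24 windows, of which 12 lay wholly outside the gene span given by the annotation and the others overlapped it or lay inside it. The letters occurred in 6 of 7 shared genes, 2 of 5 recruited-cell genes and 3 of 8 resident genes, and in 23.3% of all 32851 promoter windows of this length. A gene with several starts counted if any window matched, whereas the background is per window. Marco and Trem2, the recruited-cell genes with a match, were not tested. Among genes called in G41KO, Plek, Cd68 and Laptm5 held the letters, Ms4a6c, Gpnmb and Lyz2 did not, and the others had no entry. Of the windows wholly outside the gene span, 3 of 4 held the letters among shared genes, 2 of 3 among recruited-cell genes and 2 of 5 among resident genes. The AP-1 letters TGANTCA occurred in 5 of the 20 genes (2 resident, 2 recruited, 1 shared) and in 6.75% of all windows, and of these matches, windows outside the gene span held those of Cd68 and Trem2. A match is a description and not a site. The windows of a pair of shared genes that fell in both groups, Plek and Cd68, and of a pair of resident genes that did not pass, C1qb and C1qc, are shown because the same letters stand in all 4. They lie on the minus strand of GRCm38.p6 at chr11:17008719-17008968 (Plek), chr11:69666171-69666420 (Cd68), chr4:136886201-136886450 (C1qb) and chr4:136892915-136893164 (C1qc) and are written 5′ to 3′ along the gene, with GAGGAA or its reverse complement in capitals. The window of C1qc overlaps the gene span by 22 bases.
Plek: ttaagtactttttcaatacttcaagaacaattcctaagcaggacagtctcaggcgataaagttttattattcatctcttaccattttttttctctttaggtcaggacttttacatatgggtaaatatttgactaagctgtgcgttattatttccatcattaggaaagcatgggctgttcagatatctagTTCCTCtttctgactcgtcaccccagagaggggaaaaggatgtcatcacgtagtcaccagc
Cd68: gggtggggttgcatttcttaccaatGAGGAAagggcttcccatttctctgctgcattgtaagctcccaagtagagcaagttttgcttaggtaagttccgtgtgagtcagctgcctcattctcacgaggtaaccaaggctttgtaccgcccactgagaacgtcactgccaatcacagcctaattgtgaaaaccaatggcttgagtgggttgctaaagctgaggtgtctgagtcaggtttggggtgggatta
C1qb: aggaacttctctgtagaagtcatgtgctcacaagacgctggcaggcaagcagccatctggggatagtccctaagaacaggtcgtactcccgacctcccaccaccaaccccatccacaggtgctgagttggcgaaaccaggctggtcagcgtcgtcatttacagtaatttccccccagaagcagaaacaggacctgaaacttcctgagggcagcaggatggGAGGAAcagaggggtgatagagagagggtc
C1qc: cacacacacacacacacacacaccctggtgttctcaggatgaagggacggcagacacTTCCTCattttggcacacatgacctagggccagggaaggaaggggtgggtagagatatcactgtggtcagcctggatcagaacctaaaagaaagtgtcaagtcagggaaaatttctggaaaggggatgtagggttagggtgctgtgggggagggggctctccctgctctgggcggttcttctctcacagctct

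The 9 tested resident genes kept most of their signal. Their log2 fold changes ran from -0.91 to 0.06 in G41KO and from -0.46 to 0.32 in G43KO. Adgre1 (chr17:57358581-57483529) encodes F4/80, the standard surface marker of mouse macrophages. Its signals were 737 and 969 in WT, 347 and 558 in G41KO, and 615 and 615 in G43KO. The KO arrays were all below WT, with G41KO lowest, but the change did not pass (-0.91 ± 0.24, adjusted p = 0.0646 in G41KO, and -0.45 ± 0.24, adjusted p = 0.331 in G43KO). It passed in G41KO under median centring (-0.82, adjusted p = 0.038), without WT replicate 1 (-1.11, 0.0343) and without G41KO replicate 2 (-1.24, 0.0371).

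The 3 chains of complement C1q, which tags dying cells and immune complexes, are encoded by neighbouring genes within 18.7 kb of chromosome 4 (chr4:136880126-136898844). C1qa had signals of 1840 and 2893 in WT, 1686 and 2017 in G41KO, and 2249 and 2127 in G43KO. C1qb had 1468 and 1980 in WT, 934 and 1287 in G41KO, and 1282 and 1252 in G43KO. C1qc had 1297 and 2055 in WT, 1193 and 1400.1 in G41KO, and 1791 and 1491 in G43KO. Only C1qb had all KO arrays below WT, while WT and both KO groups overlapped for C1qa and C1qc. In G41KO the log2 fold changes were -0.32 ± 0.20 for C1qa (adjusted p = 0.441), -0.63 ± 0.19 for C1qb (0.114) and -0.33 ± 0.21 for C1qc (0.448), and in G43KO they were -0.08, -0.42 and 0.0015. Without WT replicate 1, C1qa (-0.64, adjusted p = 0.0427) and C1qb (-0.84, 0.035) passed in G41KO.

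Mrc1 encodes the mannose receptor CD206, Folr2 a folate receptor of perivascular macrophages, Ms4a7 a membrane protein of mature macrophages and Cx3cr1 the fractalkine receptor. Mrc1 had signals of 532 and 697 in WT, 419.9 and 658 in G41KO, and 597 and 516 in G43KO. Folr2 had 231 and 298 in WT, 171 and 288 in G41KO, and 283 and 333 in G43KO. For both genes the groups overlapped. Ms4a7 had 612 and 781 in WT, 641 and 814 in G41KO, and 733 and 909.7 in G43KO. Cx3cr1 had 209.8 and 200.7 in WT, 148 and 309 in G41KO, and 278 and 244 in G43KO, where both arrays were above WT. The log2 fold changes of these 4 genes lay between -0.22 and 0.32 with adjusted p from 0.554 to 0.943, and the sign turned under at least 1 alternative, in both comparisons for Mrc1, Ms4a7 and Cx3cr1 and in G41KO for Folr2.

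Lyve1, a hyaluronan receptor of perivascular macrophages and also of lymphatic endothelium, had signals of 1198 and 1444 in WT, 884 and 955 in G41KO, and 1003 and 905 in G43KO. Every KO array was below both WT arrays, but neither change passed (-0.51 ± 0.15, adjusted p = 0.0982 in G41KO, and -0.46 ± 0.15, adjusted p = 0.137 in G43KO). The lymphatic endothelium markers (5 of 6 with a probe set, none at or below 18 in any array) summed to 3520 and 5202 in WT, 1816 and 1851 in G41KO, and 2014 and 2320 in G43KO. Of the 4 tested, Pdpn alone fell, by 1.74 and 1.45, and the part of this in the Lyve1 values was not tested. The Pdpn call in G43KO stood at an adjusted p of 0.0295 with GPR43 KO replicate 1 left out and was lost without G43KO replicate 2 (0.117).

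Below the intensity cut, Cd163 differed from the tested resident genes in its signals. Cd163 (chr6:124304636-124330529) encodes the scavenger receptor for haemoglobin and haptoglobin, and it had 231 and 239.6 in WT, 38.3 and 60.4 in G41KO, and 80.6 and 73.7 in G43KO. Its 3 groups did not overlap, and the KO groups held 21.0% and 32.8% of the WT mean. With no filter the limma fit gave -1.93 ± 0.35 in G41KO (adjusted p = 0.0247) and -1.41 ± 0.35 in G43KO (adjusted p = 0.0924), and with the mean over probe sets for all genes it passed in both (0.00566 and 0.0282). In a combination likewise chosen after seeing the data, with that mean and the same library left out as for Marco, Cd163 did not pass in G43KO (-1.47, adjusted p = 0.111). The lectin Clec10a had 76.2 and 98.4 in WT, 86.7 and 93.5 in G41KO, and 104 and 87.4 in G43KO. Siglec1, a sialic acid-binding receptor, had 80.2 and 26.2 in WT, 14.6 and 102 in G41KO, and 10.4 and 19.4 in G43KO. Timd4, a receptor for dying cells on long-lived macrophages, had 27.1 and 4.36 in WT, 23.2 and 31.4 in G41KO, and 4.76 and 47.5 in G43KO. For these last 3, WT and G41KO overlapped, much of the signal lay near background, and with no filter none passed.

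Read over arrays, the classes separated in the same way in each KO array. The mean log2 difference from the WT mean was -0.40 and 0.40 in the WT arrays over the 5 tested recruited-cell genes, -2.44 and -2.53 in G41KO, and -1.92 and -2.31 in G43KO. Over the 10 shared genes it was -0.27 and 0.27 in WT, -1.46 and -1.08 in G41KO, and -0.94 and -1.25 in G43KO. Over the 9 resident genes it was -0.19 and 0.19 in WT, -0.58 and -0.09 in G41KO, and -0.06 and -0.11 in G43KO. Only the recruited-cell and shared classes thus had every KO array below both WT arrays. These means take tested genes alone, and a gene low in the KO groups was tested only if WT was high. The separation by array is therefore a description. The library labelled GPR43 KO replicate 1 was on the KO side for these classes. Members also moved together within groups: WT replicate 2 exceeded WT replicate 1 in 22 of 24 tested members (55.4% of all genes), G41KO replicate 2 exceeded G41KO replicate 1 in 21 (51.9%), and G43KO replicate 2 exceeded G43KO replicate 1 in 4 (46.8%).

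Neutrophil markers moved with these classes. Of 13 listed, 11 had a probe set, and the 6 tested all fell in both KO groups. Of all genes tested, 3.11% fell in G41KO and 2.41% in G43KO. A gene low in the KO groups was tested only if WT was high, so this count is a description. The call of Csf3r in G43KO depended on single arrays. Its log2 fold change there was -2.19 over all arrays, -1.87 without WT replicate 2 and -1.67 without G43KO replicate 2. It was -2.71 with GPR43 KO replicate 1 left out. The summed signal of the 11 markers was 73327 and 131456 in WT, 1101 and 1081 in G41KO, and 3098 and 1148 in G43KO. Of the 11, 3 and 1 were at or below 18 in G41KO and 1 in each G43KO array. Several members, among them Lyz2, Spi1, Plek, Laptm5 and Lst1, are also expressed by neutrophils, and the part of neutrophils in their values was not tested. Summed signals of the resident members were 8539 and 11686 in WT, 6588 and 8574 in G41KO, and 9030 and 8622 in G43KO. Those of the recruited-cell members were 5609 and 10421 in WT, 1063 and 1173 in G41KO, and 1963 and 1496 in G43KO. The dendritic cell markers were weak throughout, with 2 of 8 tested, neither past the threshold, and sums of 484 to 875.

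Markers of non-myeloid cells were counted in the same way, and their part in the member values was not tested. All 5 smooth muscle markers were tested, with summed signals of 55577 and 60956 in WT and 68547 to 88273 in the KO arrays. Actg2, an actin of visceral muscle, rose in both groups (0.83, adjusted p = 0.0117 in G41KO, and 0.88, adjusted p = 0.0113 in G43KO), and the call was lost in G43KO without the library labelled GPR43 KO replicate 1 (0.0791) or G43KO replicate 2 (0.0717) and in G41KO without either G41KO array (0.0582 and 0.102). Of the 3 adipocyte markers, Car3, a carbonic anhydrase, rose in both groups (2.83, adjusted p = 0.00279, and 2.09, adjusted p = 0.0133), also with any 1 array left out. Fabp4, a lipid carrier of adipocytes, endothelium and macrophages, fell (-0.89, adjusted p = 0.0129, and -1.05, adjusted p = 0.00813), and Adipoq did not pass. Without the library labelled GPR43 KO replicate 1, Fabp4 still passed in G43KO (0.0412). It was lost there without G43KO replicate 2 (0.0632), and in G41KO without WT replicate 2 (0.0611), G41KO replicate 1 (0.104) or G41KO replicate 2 (0.0527).

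Of the 5 blood endothelium markers, Pecam1 fell in G41KO (-0.87, adjusted p = 0.0239) and did not pass in G43KO (-0.63, adjusted p = 0.0852). The call was lost without any WT or G41KO array (0.0549 to 0.135). Their summed signals were 2392 and 2530 in WT, 2083 to 2310 in G41KO and 2539 to 2987 in G43KO. No B cell, T cell, mast cell or fibroblast marker passed, with 2, 2, 2 and 5 tested, although the fibroblast gene Dcn did in both groups without WT replicate 1. The epithelial Vil1 call in G41KO was lost without any array other than WT replicate 1 (0.0733 to 0.243).

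**Figure D3:**
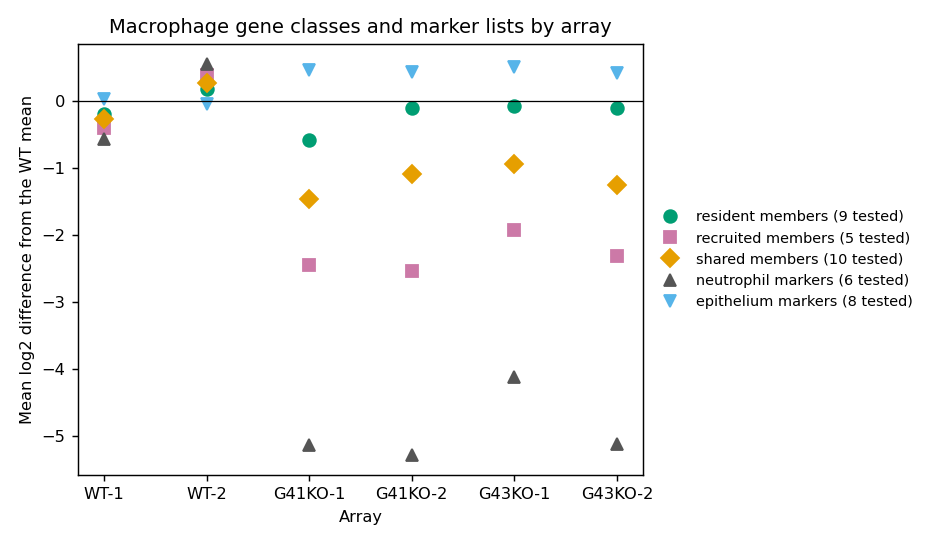
The mean log2 difference from the WT mean (y axis) is shown for each array over the tested genes of the 3 member classes and of the neutrophil and epithelium marker lists. Recruited-cell genes lie at -1.92 to -2.53 in the KO arrays, resident genes at -0.06 to -0.58, and neutrophil markers at -4.11 to -5.28. A gene low in the KO groups enters only if WT was high, so the separation is a description.

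Counted by arrays instead of by the fit, all G41KO arrays lay below all WT arrays for 16 of 24 tested members, or 66.7%, where 25.3% of all genes did so. They lay above for 0 members, against 24.6% of all genes. All G43KO arrays lay below WT for 16 members, or 66.7%, against 22.9% of all genes, and above for 1 (Cx3cr1), against 27.7%. In each comparison the 16 comprised all 5 recruited-cell genes, 8 shared genes and 3 resident genes (Adgre1, C1qb and Lyve1). The shared genes differed in that Apoe was among them in G41KO and Ctss in G43KO.

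Probe sets not used in the fit were read separately. Of the 11 genes called in G41KO, 4 had such probe sets above the intensity cut, 6 in all, on the same arrays as the calls. Of these, 6 lay below both WT arrays in both G41KO arrays and 5 in both G43KO arrays, where 21.8% (G41KO) and 21.7% (G43KO) of the 7027 unused probe sets of all genes did. The 4 genes were picked for falling on these arrays, so the counts are a description and no independent support. The other probe sets of Plek read 732 and 1867 in WT against 92.6 to 135 in the KO arrays, and 973 and 1501 against 116 to 176. That of Ms4a6d read 720 and 906 in WT against 82.7 to 110.1 in the KO arrays. That of Msr1 read 261 and 316 in WT, 119 and 96.8 in G41KO, and 57.7 and 77.2 in G43KO. Those of Laptm5 read 294 and 242 in WT against 99.96 to 225 in the KO arrays, and 694 and 891 in WT against 374 to 704. A further Msr1 probe set below the cut, not counted above, read 279.9 and 358 in WT, 11.8 and 12.3 in G41KO, and 87.3 and 60.2 in G43KO. Of the 9 tested resident genes, 2 had unused probe sets above the cut, 3 in all, of which 3 lay below WT in both G41KO arrays and 2 in both G43KO arrays. That of Lyve1 read 854 and 845 in WT against 513 to 592 in the KO arrays. The 2 further C1qb probe sets read 986 and 688 in WT, 429.6 and 639 in G41KO, and 804 and 711 in G43KO, and 649 and 478 in WT against 196 to 351 in the KO arrays.

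**Figure D4:**
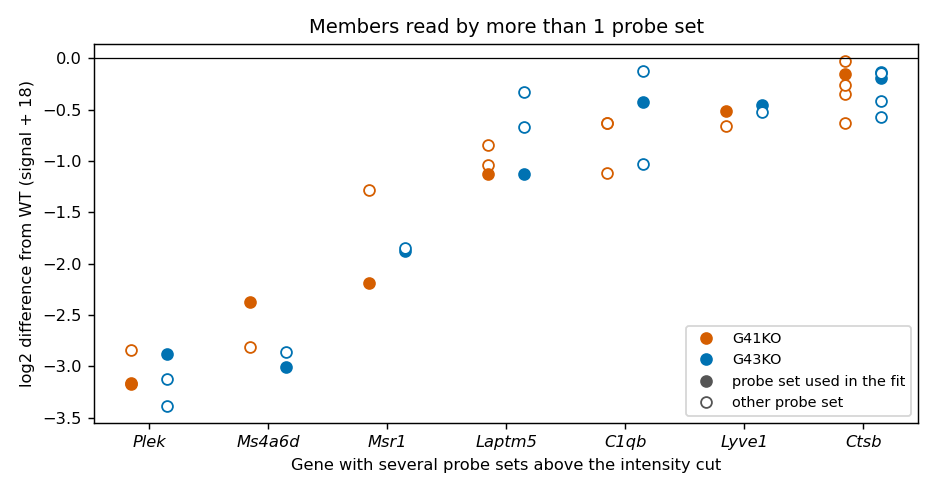
The log2 difference from WT (signal + 18, y axis) is shown for the members with several probe sets above the intensity cut, in G41KO (orange) and G43KO (blue), with filled points for the probe set used in the fit and open points for the others. The 3 probe sets of Plek lie close together far below 0.

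The KO groups were also compared with each other. No member passed, and 0% of all genes did. At an unadjusted p under 0.05 there were 596 genes in limma, and 1 was a member, Ms4a6c (1.07 ± 0.24, adjusted p = 0.766). The log2 difference of G43KO from G41KO was positive for 20 of 24 members, with a median of 0.27. It was positive for 6145 of the 10916 genes tested, with a median of 0.03. For all 9 resident genes it was positive, at 0.05 to 0.47. Their mean log2 difference from the WT mean was -0.58 in G41KO replicate 1 and -0.09 in G41KO replicate 2. In the G43KO arrays it was -0.06 and -0.11, so only G41KO replicate 1 stood apart. All G43KO arrays lay above all G41KO arrays for 9 members (37.5%, against 23.1% of all genes), which were Adgre1, C1qa, C1qc, Ms4a6c, Gpnmb, Cd68, Lyz2, Apoe and Plek. They lay below for 1, Ms4a6d, against 14.8% of all genes. A member that passed in G41KO and not in G43KO is thus not shown to differ between them.

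Other genes of these cells were counted from lists of known macrophage genes. Of 20 further genes of monocytes and inflammatory macrophages, 16 were tested. In G41KO 14 fell and 2 did not pass, and in G43KO 13 fell and 3 did not, with medians of -2.56 and -2.20. Of all genes tested, 3.11% fell in G41KO and 2.41% in G43KO. Here too a gene low in the KO groups was tested only if WT was high, so these counts are a description. Leaving out each array in turn gave 11 to 14 that fell in G41KO and 9 to 13 in G43KO, with 12 in G43KO without the library labelled GPR43 KO replicate 1, where Vcan was lost. The 4 with the smallest p were the cytokine gene Il1b (-5.99 in G41KO and -5.69 in G43KO), the chitinase-like Chil3 (-5.35 and -4.57), the chemokine Ccl2 (-3.82 and -3.91), which draws monocytes from blood, and the matrix protein gene Thbs1 (-2.70 and -2.81). All 4 passed in both groups, also with any 1 array left out. Several of these genes are expressed by neutrophils too, whose markers fell as given above, and the part of neutrophils in them was not tested.

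Of 18 further genes of resident macrophages, 13 were tested, with medians of -0.35 in G41KO and -0.13 in G43KO. In G41KO 1 rose, 2 fell and 10 did not pass, where 1.85% of all genes tested rose and 3.11% fell. In G43KO 2 fell and 11 did not pass, where 1.55% of all genes rose and 2.41% fell. The lectin gene Cd209f had signals of 59.8 and 93.0 in WT, 230.4 and 282 in G41KO, and 97.6 and 180.2 in G43KO. It rose by 1.55 ± 0.35 in G41KO (adjusted p = 0.0424) and had 0.70 ± 0.35 in G43KO (adjusted p = 0.309). The rise did not pass without WT replicate 1 (0.09), WT replicate 2 (0.0579), G41KO replicate 1 (0.146) or G41KO replicate 2 (0.205). Pf4, a chemokine gene of some resident macrophages and of platelets, fell by 1.43 and 1.19 (adjusted p = 0.00708 and 0.02), and Fcgr1, the high-affinity receptor for IgG, fell too, with -1.53 and -1.50 (adjusted p = 0.0271 and 0.0345). Cbr2, a carbonyl reductase of resident macrophages, had 0.84 in G41KO (adjusted p = 0.0653) and 0.94 in G43KO (adjusted p = 0.0522). With the library labelled GPR43 KO replicate 1 left out, Pf4 (adjusted p = 0.0586) and Fcgr1 (0.13) did not pass in G43KO, and Cbr2 did (0.0277). In G41KO, Cbr2 passed without that library (0.0346) or G43KO replicate 2 (0.0372). Pf4 was also lost without G43KO replicate 2 (0.137) and, in G41KO, without G41KO replicate 1 (0.0634), and Fcgr1 without WT replicate 2 (0.183 in G41KO and 0.187 in G43KO), G41KO replicate 1 (0.136 and 0.0591), G41KO replicate 2 (0.113 and 0.0579) or, in G43KO, G43KO replicate 2 (0.134). Cbr2 passed in both groups under median centring (0.0176 and 0.0224) and with the replicate block (0.0491 and 0.0402).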

How the data were processed

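Colon RNA (Trizol, then a Qiagen kit; 2 µg amplified and labelled with biotin, per the labels) was hybridised to 1 Affymetrix mouse array per sample. Each of the 45101 probe sets has a deposited intensity, computed by the authors with MAS5 per the submitters' processing notes (version not given in the sources used here). They are linear and already scaled: the mean without the lowest and highest 2% of values was 500.0 in each array.

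Of the probe sets, 34945 carried 1 gene symbol in the array's annotation, 932 several, 9160 none, and 64 were controls. Positions are from RefSeq (GRCm38.p6), matched by Entrez identifier for 34741, and promoter sequences are RefSeq's of the same build. The probe set with the highest mean over the arrays was kept per gene, a pseudocount of 18 added (the 20th percentile was 18.4), and genes above the 40th percentile of mean log2 signal tested. MAS5 subtracts background, so ratios of weak signals are unstable, and the pseudocount draws them toward 0. Groups came from the sample titles. limma 3.58.1 in R 4.3.3 (lmFit, eBayes with an intensity trend) fitted 1 mean per group over all 6 arrays, with 3 residual and 8.71 total degrees of freedom; tests were two-sided. The procedure was run on simulated data with noise drawn independently for each gene and array. Such data lack the joint movement of members within groups, so that run does not bear on it.

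The members, their classes and the other lists were chosen with earlier results of these data known, so no count over them is independent support. Values in every array are given for members past the threshold and for resident genes, and up to 4 genes with the smallest p are named from each further list. Alternatives covered the pseudocount, normalization, filter, probe set rule, intensity trend, a replicate block and leaving out each array; leaving out arrays for the further and marker lists was added after seeing the data.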

Additional observations from a re-analysis of the deposited data

How the results depend on the processing

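Over the tested members, 301 of 350 alternative values in G41KO and 326 of 350 in G43KO kept direction and side of the threshold; 28 and 9 no longer passed, 10 and 7 newly passed, and 11 and 8 turned sign, none of them past the threshold. Each fit that leaves out an array leaves 1 in that group, assumed to vary like the other groups. Leaving out arrays gave 195 to 892 genes called in G41KO, 129 to 761 in G43KO, 0 to 3 between the KO groups and 355 to 1009 for both KO groups averaged, beside 541, 432, 0 and 763. Members called ran from 4 to 16, 3 to 10, 0 and 7 to 15. By class, G41KO had 3 to 5 recruited, 1 to 8 shared and 0 to 3 resident members, and G43KO had 2 to 4, 1 to 6 and 0. A filter at the 60th percentile, which tests fewer genes, gave 335 genes and 5 members in G41KO (2 recruited, 3 shared). In G43KO it gave 280 genes and 4 members (1 recruited, 3 shared), and with both groups averaged 6 members. Without the intensity trend, 360, 217 and 485 genes passed in G41KO, G43KO and the average, and 4 members in G43KO (2 recruited, 2 shared). The mean over probe sets left 8 members in G41KO, of which 3 were recruited-cell genes. A resident gene passed in G41KO under median centring (1, Adgre1), with no filter (1, Cd163) and with the mean over probe sets (1, Cd163), and in G43KO with the mean over probe sets (1, Cd163). The causes of these differences were not tested.

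Among single genes in G41KO, Msr1 was lost under quantile normalization (adjusted p = 0.0519), no filter (0.0577), no trend (0.0668) and the block (0.0613), Spi1 under no filter (0.0573) and no trend (0.0668), and Lst1 under those 3 (0.0529, 0.0636 and 0.092), the 60th percentile (0.0533) and the mean over probe sets (0.0553). In G43KO, Cd68 (0.0596) and Lyz2 (0.086) were lost with no trend, and Lst1 (0.00806), Msr1 (0.0196) and Spi1 (0.0354) passed under median centring, as Aif1 did in G41KO (0.0306). Of the further resident genes, Cd209f was lost in G41KO with no filter (0.0794), Fcgr1 in both groups with no filter (0.0547 and 0.0647) and in G43KO with the mean over probe sets (0.0534), and Pf4 in G43KO with no trend (0.0689). With arrays left out, the sign turned for these members in G41KO, with log2 fold changes from -0.64 to 0.0035 for C1qa, -0.36 to 0.043 for Ctsb, -0.22 to 0.23 for Ctss, -0.43 to 0.55 for Cx3cr1, -0.57 to 0.13 for Folr2, -0.52 to 0.11 for Mrc1 and -0.11 to 0.23 for Ms4a7. In G43KO it turned for Apoe (-0.69 to 0.018), C1qa (-0.40 to 0.25), C1qc (-0.33 to 0.33), Ctsb (-0.39 to 0.012), Mrc1 (-0.32 to 0.061) and for Ffar2 (-2.50 to 0.46), which is no member. It also turned for Ctss in G41KO under quantile normalization (-0.033), and with the mean over probe sets for Ms4a7 (-0.090 in G41KO, -0.14 in G43KO) and Cx3cr1 (-0.19 in G43KO).

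Replicate numbers are not stated to pair arrays, and deviations of same-numbered arrays correlated at 0.107 (WT and G41KO), -0.271 (WT and G43KO) and -0.0537 (G41KO and G43KO). With the replicate block, 401 genes and 10 members were called in G41KO, 295 and 6 in G43KO, and 550 and 11 for both averaged. The number of arrays and the weak signals of 8 members below the intensity cut limit what can be read.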
